A study of Mus musculus with 8 samples.

Results

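S100a8 and S100a9, the calgranulins, and 8 further S100 genes expressed in mouse skin (S100a3, S100a4, S100a6, S100a7a, S100a10, S100a11, S100a14 and S100a16) were followed across healthy and allergen-exposed skin. The 10 genes were chosen by symbol, out of 22740 protein-coding genes listed, and all 10 were among the 15163 genes that passed the filter on low counts. RNA sequencing had been performed on dorsal skin of 8 female BALB/c mice aged 6 to 8 weeks, which formed 4 groups of 2 and gave 1 library each. In the paper's supplementation experiments all mice ate a low-fibre diet with nothing added, starting 2 weeks ahead of any allergen and kept to the end. Baseline CTL mice drank plain water and received no allergen. Baseline butyrate mice drank 400 mM sodium butyrate, a short-chain fatty acid that gut bacteria make from fibre, and received no allergen either. Lesional CTL mice drank plain water and were exposed 4 times over 2 weeks to extract of house dust mite (HDM), 15 µg each time. The extract was held on shaved back skin of anaesthetized mice by a gauze under an occlusive dressing, a model of atopic dermatitis-like inflammation. Lesional butyrate mice received the same HDM course and drank butyrate from 2 weeks before it until the end. Baseline skin of butyrate-treated mice was taken when the butyrate course ended, and the titles of unexposed and exposed mice begin with different numbers, so HDM exposure and the set of mice cannot be told apart. No group is labelled as patched without HDM, so HDM and the patch cannot be told apart either. The paper cites earlier work in which a saline patch caused no overt inflammation. The comparisons ask how these transcripts differ with HDM under plain water and under butyrate, and whether butyrate changes them in lesional or unexposed skin.

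S100 proteins are small calcium-binding proteins of the EF-hand type that work mostly as dimers, inside cells as calcium sensors and, once released, as danger signals. S100A8 and S100A9 pair to form calprotectin, which is stored in the cytoplasm of neutrophils, is made by keratinocytes of injured or inflamed epidermis, and withholds zinc and manganese from microbes. The other members belong largely to resident cells: S100A10 and S100A11 are partners of annexins, S100A4 binds non-muscle myosin, S100A14 and S100A16 are epithelial proteins, S100A7A is the mouse relative of human psoriasin, and S100A3 is a cysteine-rich protein of the hair cuticle.

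All 10 genes lie on chromosome 3 (GRCm38, GENCODE vM21), 9 of them on the plus strand. From S100a14 (90526856 to 90528837) through S100a16, S100a3, S100a4, S100a6, S100a7a and S100a8 to S100a9, 8 genes occupy 168.865 kb. S100a11 and S100a10 lie 2824.766 kb further on, with 60 protein-coding genes in between. S100a8 (ENSMUSG00000056054, 90668978 to 90670035, plus strand) and S100a9 (ENSMUSG00000056071, 90692632 to 90695721, minus strand) end facing each other across 22.596 kb. S100a3 (ENSMUSG00000001021, 90560578 to 90602702) overlaps S100a2 and a read-through gene model, Gm42674, that also covers S100a4, so counts assigned to S100a3 and S100a4 carry that uncertainty. S100a2 itself had between 0 and 3 counts in every library.

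The 250 bases upstream of the RefSeq transcription starts (GRCm38.p6) of S100a8 and S100a9 are shown because these are the members called between unexposed and exposed skin in the fit of all 8 libraries. Capitals mark matches, on either strand, to 3 short patterns. The TATA-box pattern was TATAAA. A C/EBP-type pattern was written TTNNGNAA. The AP-1 pattern was TGANTCA.
S100a8, chr3:90668821-90669070, plus strand: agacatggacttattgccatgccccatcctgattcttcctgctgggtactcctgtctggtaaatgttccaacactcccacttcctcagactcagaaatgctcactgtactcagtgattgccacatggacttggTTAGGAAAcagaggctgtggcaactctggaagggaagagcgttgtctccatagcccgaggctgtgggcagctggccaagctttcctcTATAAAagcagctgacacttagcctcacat
S100a9, chr3:90695722-90695971, minus strand: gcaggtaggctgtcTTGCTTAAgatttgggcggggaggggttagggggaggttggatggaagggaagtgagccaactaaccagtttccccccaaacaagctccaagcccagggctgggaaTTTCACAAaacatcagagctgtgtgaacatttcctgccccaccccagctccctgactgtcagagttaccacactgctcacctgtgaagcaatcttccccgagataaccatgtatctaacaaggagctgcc
The S100a8 window held TATAAA 30 bases before the start, and 12.4% of all 32851 RefSeq mouse windows of this length held it. It also held TTAGGAAA 117 bases before the start. The S100a8 window covers the first bases of the longer GENCODE model. In the S100a9 window TTGCTTAA stood 236 bases and TTTCACAA 130 bases before the start, and 36.8% of all windows held a match to that pattern. TGANTCA (6.75% of all windows) was in neither. Of the other members with a window, S100a4 and S100a3 held TATAAA, S100a3 held the C/EBP-type pattern, and S100a11 and S100a16 held TGANTCA. An NF-kB-type pattern, GGGNNNNNCC (45.8% of all windows), occurred in neither calgranulin window. Nor did the STAT-type pattern TTCNNNGAA (7.02%), which S100a7a held. The RefSeq table had windows for 8 of the 10 members, and a match describes letters only.

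Libraries held between 18004136 and 21085544 counts. Levels are counts scaled by library size with TMM factors (CPM), and 3 counts, taken as the floor of detection, corresponded to 0.138 to 0.169 CPM. Every member had at least 9 counts in every library. One library stood apart. The baseline butyrate mice, replicates 1 and 3, lay more than 2-fold apart in 27.1% of 14319 genes with at least 1 CPM, against 1.79% to 5.01% in the other 3 pairs, and in 6 of the 10 members. Replicate 3 carried the transcripts of growing hair: hair shaft genes summed to 5255 CPM in it and to 63.0 to 123 CPM in the other 7 libraries. Since all libraries share 1 estimate of the spread, this mouse bears on every contrast: without it, the percentage of all genes called rose from 3.58 to 12.5 with HDM in CTL mice, from 0.35 to 5.94 with HDM in butyrate-treated mice and from 0 to 1.22 between lesional groups. These percentages also rose with replicate 1 left out instead, so the rise is not particular to replicate 3. Member and list results are also given without replicate 3 where that changes them. Basal keratinocyte markers summed to between 8081 and 13552 CPM in the 8 libraries, and skeletal muscle genes, which mark the muscle layer under the dermis, to between 9561 and 46257 CPM. Values below follow the order baseline CTL 1 and 2, baseline butyrate 1 and 3, lesional CTL 4 and 5, lesional butyrate 3 and 4.

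In baseline CTL skin the S100 transcripts fell into an abundant and a scarce set. Per kilobase of merged exons, the only scale on which levels of different genes are compared here, S100a11 led baseline CTL skin at 706 ± 67.3 CPM per kb (SD, n = 2). S100a10 (248.8 CPM per kb), S100a4 (240.6), S100a6 (216), S100a14 (170) and S100a16 (133) followed, and only the ranges of S100a10 and S100a4 overlapped among these neighbours. S100a9 stood at 6.38, S100a8 at 2.68, S100a7a at 1.92 and S100a3 at 0.211 CPM per kb, with overlapping ranges for S100a8 and S100a7a. In baseline butyrate skin S100a3 averaged 92.6 CPM per kb, from 0.159 in replicate 1 to 185 in replicate 3, so the 2 sets did not stand apart in that group. In lesional CTL skin the order began with S100a9 at 2205 ± 853 CPM per kb and S100a8 at 1137 ± 429, ahead of S100a11 at 861, although the ranges of S100a8 and S100a11 overlapped. In lesional butyrate skin S100a11 at 757 stood before S100a9 at 589, with overlapping ranges, and S100a8 at 264 lay between S100a10 and S100a14.

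**Figure D1:**
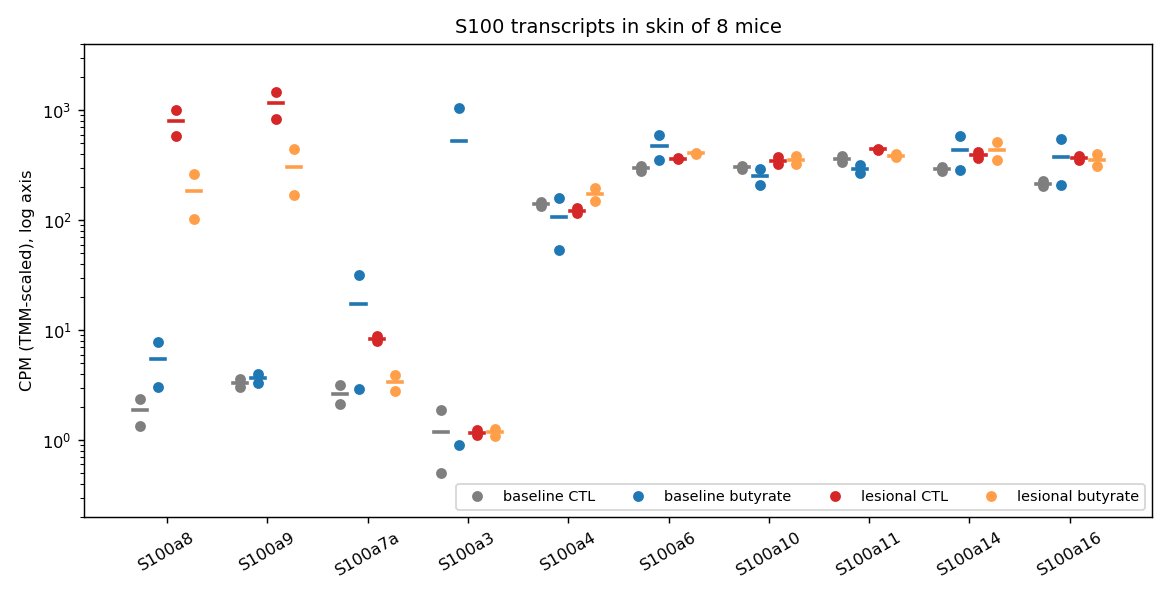
CPM of the 10 S100 genes in each of 8 mice on a log axis (points), with the mean of the 2 mice of a group as a short line and groups by colour. S100a8 and S100a9 lie between 1.33 and 7.86 CPM in unexposed and between 102 and 1466 CPM in exposed skin, S100a3 reaches 1047 CPM in 1 baseline butyrate mouse, and the remaining abundant members stay between 53.2 and 596 CPM.

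The calgranulins were the members that rose with HDM exposure in the fit of all 8 libraries. S100a8 was at 1.33 and 2.39 CPM in baseline CTL skin, 3.04 and 7.86 in baseline butyrate skin, 999.8 and 579 in lesional CTL skin, and 265 and 102 in lesional butyrate skin. S100a9 was at 3.06 and 3.61, then 3.33 and 4.00, then 1466 and 836, then 445 and 169 CPM. All 4 exposed mice lay far above all 4 unexposed mice for both genes, and both lesional CTL mice lay above both lesional butyrate mice. Between lesional and baseline skin of CTL mice S100a8 rose by 8.72 on the log2 scale (standard error 0.87, FDR = 0.0228 in edgeR's quasi-likelihood test, Benjamini-Hochberg), which is 423-fold. S100a9 rose by 8.43 (standard error 0.67, FDR = 0.00944), which is 345-fold. These were the 2 members called at an FDR below 0.1 and a fold-change above 2, where 2.37% of all tested genes were called higher and 1.21% lower. In bulk skin, more cells of a type and more transcript per cell cannot be told apart.

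Of the other members, 6 were higher in both lesional CTL mice than in both baseline CTL mice without passing the test, and S100a4 was lower in both. Together with the calgranulins, 8 members thus did not overlap in the higher direction, where 36.7% of all genes did so, and 1 in the lower, where 38.5% did. With baseline CTL replicate 1 or 2 left out, S100a8 differed by 8.37 or 9.20 and S100a9 by 8.32 or 8.55. With lesional CTL replicate 4 or 5 left out, S100a8 differed by 8.28 or 9.07 and S100a9 by 7.97 or 8.78. The calls did not all hold in these fits, which left 1 mouse in a group and called few genes of any kind.

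Among butyrate-treated mice S100a9 rose by 6.39 on the log2 scale between baseline and lesional skin (standard error 0.61, FDR = 0.0378), the 1 member called among 0.277% of all genes called higher. S100a8 differed by 5.06 (standard error 0.73) with an FDR of 0.102 that just missed the threshold. Without baseline butyrate replicate 3, both were called, S100a8 at 5.91 (FDR = 0.0356) and S100a9 at 6.53 (FDR = 0.0312). S100a8, S100a9, S100a10 and S100a11 were higher in both lesional than in both baseline butyrate mice, where 15.7% of all genes were. With any 1 of the 4 CTL mice left out S100a9 differed by 6.39, and without lesional butyrate replicate 3 by 5.53, but its call was lost. These fits left 1 mouse in a group and called few genes of any kind. In a fit of only the 4 butyrate-treated mice 0 members and 0 of 14839 genes were called (FDR = 0.478 for S100a9).

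Lesional skin of butyrate-treated mice was also compared with baseline CTL skin, a contrast that shares its baseline mice with the first one and its lesional mice with the second. S100a8 rose by 6.62 (standard error 0.80, FDR = 0.0676) and S100a9 by 6.52 (standard error 0.62, FDR = 0.0352), or 98.2-fold and 92.0-fold, while 0.303% of all genes were called higher. In this contrast 7 members were higher in both lesional butyrate mice, against 31.2% of all genes. limma-voom called S100a9 only, with an FDR of 0.110 for S100a8. Both calls were lost without baseline CTL replicate 1 or 2, lesional CTL replicate 4 or 5, or lesional butyrate replicate 3. That of S100a8 was also lost without lesional butyrate replicate 4. These fits left 1 mouse in a group and called few genes of any kind. Over all 8 fits with 1 mouse left out, S100a8 differed by 5.78 to 7.16 and S100a9 by 5.66 to 7.07.

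Under butyrate the calgranulins of lesional skin were lower in both mice, but not past the test. The paper reports S100a8 as reduced by RT-PCR in lesional skin of butyrate-treated mice, with more mice per group than here. S100a8 differed by -2.11 on the log2 scale (standard error 0.63, FDR = 0.854) and S100a9 by -1.91 (standard error 0.49, FDR = 0.743) between lesional butyrate and lesional CTL skin in edgeR's quasi-likelihood test. The 2 butyrate-treated mice themselves lay 2.59-fold apart in S100a8 and 2.64-fold in S100a9, and the 2 CTL mice 1.73-fold and 1.75-fold. edgeR called 0 members and 0% of all genes, and these 2 members had an unadjusted p below 0.05, as did 734 of 15163 genes. limma-voom called 0 members. DESeq2 called both (FDR = 0.0727 for S100a8 and 0.0269 for S100a9), among 124 of 15163 genes. Without baseline butyrate replicate 3 the FDR was 0.145 for S100a8 and 0.166 for S100a9, at differences of -2.11 and -1.91. S100a7a and S100a11 were also lower in both butyrate-treated mice and S100a4 and S100a6 higher in both. That made 4 members lower, where 22.5% of all genes were, and 2 higher, where 22.4% were.

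**Figure D2:**
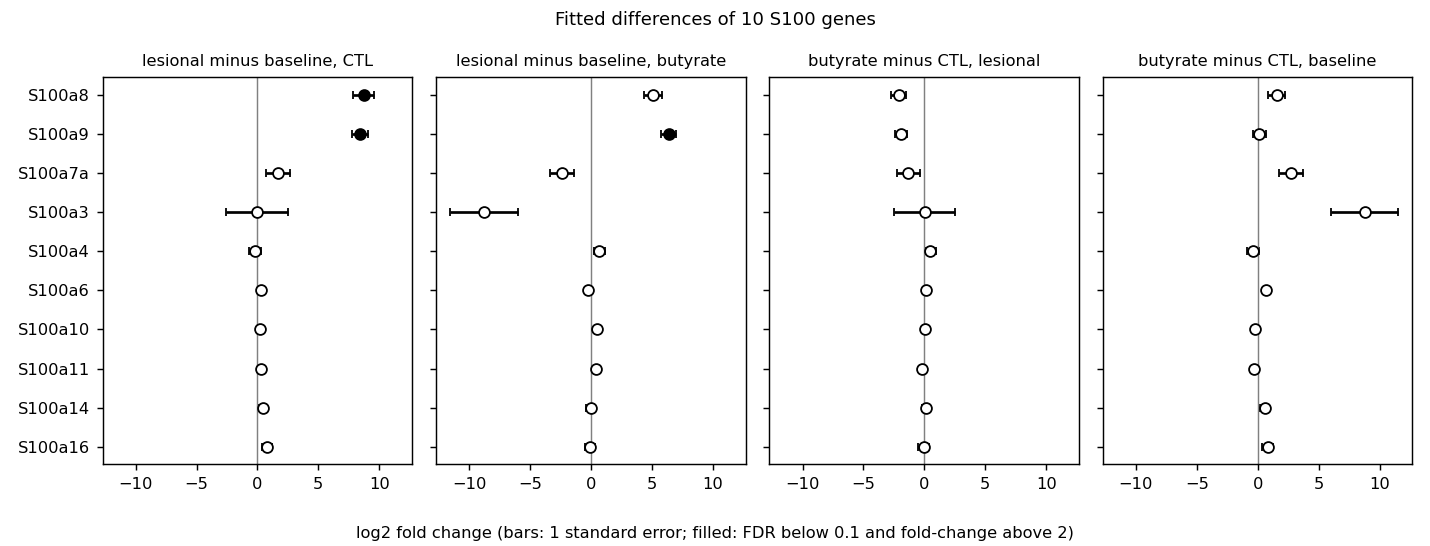
Fitted log2 fold changes of the 10 genes in 4 contrasts, with bars of 1 standard error and filled points for calls at an FDR below 0.1 and a fold-change above 2. The filled points are S100a8 (8.72) and S100a9 (8.43) in CTL mice and S100a9 (6.39) in butyrate-treated mice, and S100a3 has the widest bars.

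Butyrate alone, in unexposed skin, left S100a9 at 3.33 and 4.00 CPM beside 3.06 and 3.61 CPM in CTL mice, overlapping ranges with a fitted difference of 0.14 (standard error 0.53, FDR = 0.919). S100a8 was higher in both butyrate-treated mice, by 1.55 on the log2 scale (standard error 0.70, FDR = 0.714), and by 0.71 without baseline butyrate replicate 3 (FDR = 1). S100a6 also was higher in both, and S100a10 and S100a11 were lower in both, among 13.8% of all genes higher and 15.9% lower without overlap. edgeR called 0 members and 0% of all genes. S100a3, S100a6 and S100a7a had an unadjusted p below 0.05, among 529 of 15163 genes. limma-voom called 0 members. DESeq2 called S100a3, among 58 of 15163 genes. Without replicate 1, so that replicate 3 alone stood for the group, calls were made widely among all genes as well as among members. Without replicate 3 none was made. With 1 mouse left out at a time, the difference of S100a7a ran from 0.15 to 3.59.

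The difference between the butyrate effects in lesional and baseline skin was tested as an interaction. It was -3.66 for S100a8 (standard error 0.94, FDR = 0.840) and -2.04 for S100a9 (standard error 0.72, FDR = 0.840). edgeR called 0 members and 0% of all genes. S100a8, S100a9, S100a3 and S100a7a had an unadjusted p below 0.05, among 703 of 15163 genes. With 1 mouse left out at a time, the interaction ran from -10.00 to 0.418 for S100a3 and from -4.90 to -1.47 for S100a7a. limma-voom called 0 members and DESeq2 called S100a8 (FDR = 0.0318), among 37 of 15163 genes. Without baseline butyrate replicate 3 the interaction of S100a8 was -2.81 (FDR = 0.530) and that of S100a9 -1.90 (FDR = 0.622) in edgeR.

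The 2 calgranulin transcripts kept a like proportion in exposed skin and not in unexposed skin. S100a9 counts were 1.47 and 1.44 times those of S100a8 in lesional CTL mice and 1.68 and 1.66 times in lesional butyrate mice. In unexposed skin, where 24 to 165 counts of S100a8 and 55 to 84 of S100a9 were read, the ratio was 2.29, 1.51, 1.09 and 0.509. The lowest ratio belonged to baseline butyrate replicate 3, whose S100a8 count of 165 was the highest among the unexposed mice. Of the counts of all 10 genes, S100a8 and S100a9 together took 0.268%, 0.376%, 0.392% and 0.354% in the 4 unexposed mice. They took 54.5% (95% Clopper-Pearson interval 54.1 to 54.8) and 41.1% (40.7 to 41.4) in lesional CTL mice, and 24.6% (24.3 to 25.0) and 11.7% (11.4 to 12.0) in lesional butyrate mice. The intervals cover counting error only, and the spread between mice exceeded them. Ranked by counts among all genes, S100a9 was 35th and 84th in lesional CTL, 210th and 968th in lesional butyrate, and between 12348th and 12776th in unexposed skin.

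Markers of neutrophils and of injured keratinocytes, both known sources of calgranulins, were highest in the same groups. The 18 neutrophil markers summed to 96.1 and 94.3 CPM in baseline CTL, 86.9 and 129 in baseline butyrate, 468 and 484 in lesional CTL, and 178 and 164 in lesional butyrate skin. Of the 13 tested, 9 rose with HDM in CTL mice, among them Cxcr2, a receptor that draws neutrophils into tissue, by 4.65 (FDR = 0.00725), and Csf3r, the receptor of granulocyte colony-stimulating factor, by 4.12 (FDR = 0.0508). The list's median was 4.12, with -0.02 over all genes tested. In butyrate-treated mice Cxcr2 alone was called (3.46, FDR = 0.0341). Between lesional groups 0 of 13 passed the test and 12 of 13 differences were negative, with a median of -2.45 beside -0.01 for all genes. Without baseline butyrate replicate 3, 11 of 13 rose with HDM in CTL mice and 5 in butyrate-treated mice, and 6 of 13 were called lower in lesional butyrate than in lesional CTL skin. The defining markers Ly6g, Elane, Camp, Ngp and Ltf had at most 0.461 CPM in any library, and Il1r2 alone made up 65.7 of the 96.1 CPM in baseline CTL replicate 1 and Padi4 made up 96.9 of the 129 CPM in baseline butyrate replicate 3.

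Genes that keratinocytes switch on after injury (Krt6a, Krt6b, Krt16, Krt17, Sprr1b, Sprr2d and Sprr2h) summed to 1198 and 1050 CPM in baseline CTL, 1072 and 3396 in baseline butyrate, 9419 and 6280 in lesional CTL, and 5444 and 3868 in lesional butyrate skin. With HDM 6 of 7 rose in CTL mice, Krt16 by 5.03 (FDR = 0.00725) and Krt6a by 2.78 (FDR = 0.0532), with a median of 4.31. In butyrate-treated mice 3 rose, with a median of 3.56. Between lesional groups 0 of 7 passed the test, all 7 differences were negative, and the median was -0.93. With that mouse left out, all 7 rose in CTL mice and all 7 in butyrate-treated mice, with a median of 3.38 in the latter, and Krt6b was called lower in lesional butyrate than in lesional CTL skin. Baseline butyrate replicate 3 is the mouse with transcripts of growing hair, and their part in its injury sum was not tested. The part that neutrophils and keratinocytes have in the calgranulin levels was not tested.

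**Figure D3:**
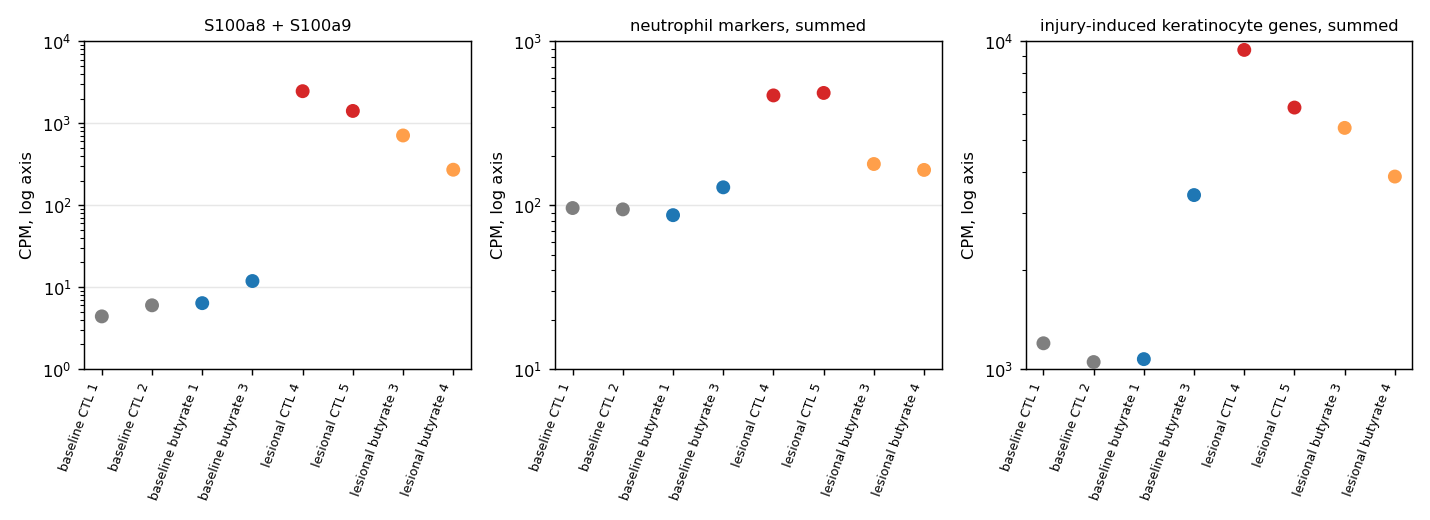
CPM per mouse on log axes for S100a8 plus S100a9, for 18 neutrophil markers summed and for 7 injury-induced keratinocyte genes summed, with groups by colour. All 3 sums are highest in the lesional CTL mice. The neutrophil sum lies at 164 and 178 CPM in lesional butyrate skin. The injury sum of baseline butyrate replicate 3 (3396 CPM), the mouse with transcripts of growing hair, approaches that of lesional butyrate replicate 4 (3868 CPM).

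Few markers of other cell types were called. Suprabasal keratinocyte markers summed to 16909 and 15910 CPM in baseline CTL, 16279 and 4474 in baseline butyrate, 4078 and 5489 in lesional CTL, and 14817 and 11542 in lesional butyrate skin. Of 10, Dsg1a and Krt2 fell with HDM in CTL mice, and Krt10, a keratin of differentiating epidermis, differed by -2.43 without passing the test. The same list had 0 calls between lesional groups, 9 of 10 differences positive and a median of 0.89. In the fit without baseline butyrate replicate 3, 6 of the 10 were called lower and 2 higher with HDM in CTL mice, and Krt1, Krt10 and Lor were called higher in lesional butyrate than in lesional CTL skin. For macrophage and dendritic cell markers, fibroblast, basal keratinocyte, cell cycle, skeletal muscle and adipocyte genes 0 genes were called in these 2 contrasts. Their median differences with HDM in CTL mice were 0.47, 0.32, 0.06, 0.63, -1.10 and -0.39, and between lesional groups -0.55, -0.08, 0.13, -0.07, -0.20 and 0.22. Without that mouse 5 of 8 muscle genes, Krt15 of the basal list, Mcm5 of the cell cycle list and 3 of 11 macrophage and dendritic cell genes were called with HDM in CTL mice, and Krt15 alone between lesional groups. Their part in the S100 levels was not tested.

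Of 13 cytokine genes known to act upstream of calgranulins in skin, 10 were in the count table and 7 were tested. Osm, Csf3, Tnf, Il1b and Il6 rose with HDM in CTL mice. Il1b was at 4.56 and 2.55 CPM in baseline CTL, 132 and 136 in lesional CTL, and 19.9 and 25.5 in lesional butyrate skin. It rose by 5.23 with HDM in CTL mice (standard error 0.61, FDR = 0.0294), and its difference between lesional groups was -2.56 (FDR = 0.737). Tnf rose by 1.66 (FDR = 0.0412). None was called in butyrate-treated mice or between lesional groups, where 6 of 7 differences were negative with a median of -2.56. In the 7 libraries without baseline butyrate replicate 3, 9 cytokine genes passed the filter, of which 8 rose in CTL mice, Il1b and Tnf rose in butyrate-treated mice, and Csf3, Il1b, Il6 and Osm were called lower in lesional butyrate than in lesional CTL skin. Il17a had 0 counts in all 4 unexposed mice and 0.186 to 0.961 CPM in exposed mice, and Il22 reached 0.641 CPM in lesional CTL replicate 4 and at most 0.0923 CPM elsewhere, so neither was tested on all 8 libraries.

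Of 11 receptors and signalling genes for extracellular calgranulins and related S100 proteins, all tested, 1 was called. Cd14, which presents ligands to TLR4, rose with HDM in CTL mice by 2.51 (standard error 0.48, FDR = 0.0656), from 7.89 and 9.38 to 39.1 and 59.6 CPM. It stood at 10.7 and 12.7 CPM in lesional butyrate skin (difference from lesional CTL -2.08, FDR = 0.737). Tlr4 itself was at 16.6 and 17.6 CPM in baseline CTL and 25.1 and 33.3 in lesional CTL skin (0.77, FDR = 0.268). Ager, the gene of the receptor RAGE, stayed between 1.38 and 2.22 CPM in all 8 mice. The receptor list had no call in butyrate-treated mice or between lesional groups, where 9 of 11 differences were negative (median -0.22). Cd14 was called lower in lesional butyrate than in lesional CTL skin once baseline butyrate replicate 3 was left out.

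The partners of annexins were the most even members. S100a10, which lacks calcium binding of its own and joins annexin A2 at membranes, was at 295 and 308, 293 and 209.6, 323 and 375, and 326 and 380.3 CPM. S100a11, which binds annexin A1 and is built into the cornified envelope, was at 385 and 337, 314 and 266, 441 and 438, and 378 and 396 CPM. Baseline butyrate replicate 3 was the lowest library for both, and across the 8 libraries their centred log2 profiles differed by 0.134 (root mean square), the closest of all 45 pairs of members. With HDM the differences in CTL mice were 0.21 for S100a10 (standard error 0.21, FDR = 0.585) and 0.29 for S100a11 (standard error 0.16, FDR = 0.365), neither of which passed the test. Between lesional groups they were 0.02 and -0.19 (both FDR = 1.00). Of 9 partner genes 0 were called in these 4 contrasts. Anxa2 lay between 757 and 1368 CPM, Anxa1 between 725 and 931 and Ahnak, a giant scaffold that S100A10 and annexin A2 bind, between 1414 and 2835 CPM.

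The epithelial members S100a14 and S100a16, neighbours 8.416 kb apart, also ran together (0.165). S100a14 was at 306 and 281, 286 and 585, 419 and 366, and 510.3 and 354 CPM. S100a16 was at 226 and 203, 208 and 547, 385 and 355, and 398 and 311 CPM. For both genes baseline butyrate replicate 3 was the highest library, and both lesional CTL mice were above both baseline CTL mice. The HDM differences in CTL mice were 0.42 (standard error 0.36, FDR = 0.529) and 0.79 (standard error 0.43, FDR = 0.350), and S100a16 had an FDR of 0.0147 without the baseline butyrate group but stayed under the fold-change of 2. In butyrate-treated mice the fitted values were -0.01 and -0.09 with overlapping libraries, and 0.60 (FDR = 0.167) and 0.77 (FDR = 0.0722) without baseline butyrate replicate 3, under the fold-change of 2.

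S100a6, or calcyclin, a protein of proliferating and stromal cells, was at 280.0 and 310.4, 352 and 596, 368 and 357, and 409 and 402 CPM. Both lesional butyrate mice lay above both lesional CTL mice, which lay above both baseline CTL mice, and the differences of 0.16 (standard error 0.26) and 0.30 (standard error 0.26) did not pass the test (FDR = 1.00 and 0.533). S100a4, a gene of fibroblasts and leukocytes, was at 134 and 147, 160.2 and 53.2, 116 and 129, and 148 and 197 CPM. Its lowest library was baseline butyrate replicate 3, where macrophage and dendritic cell markers also had their lowest sum (416 CPM, 942 to 1983 elsewhere). The fibroblast sum was 3901 CPM there and lowest in lesional butyrate replicate 3 at 3722 CPM, where S100a4 was at 148 CPM. Between lesional groups S100a4 differed by 0.50 (standard error 0.47, FDR = 1.00).

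S100a7a was at 3.17 and 2.11 CPM in baseline CTL, 2.93 and 31.9 in baseline butyrate, 8.75 and 7.98 in lesional CTL, and 3.91 and 2.79 in lesional butyrate skin. Both lesional CTL mice lay above both baseline CTL and both lesional butyrate mice, and baseline butyrate replicate 3 lay above all others. With HDM the difference in CTL mice was 1.66 (standard error 0.97, FDR = 0.379), and between lesional groups it was -1.32 (standard error 0.95, FDR = 1.00). With the baseline butyrate group out of the fit, the HDM difference was unchanged at 1.66 and was called (FDR = 0.00993), among 1860 of 15033 genes. It was also called with only replicate 1 or only replicate 3 of that group left out. With that group out, the lesional difference was -1.32 with an FDR of 0.1003 and was not called. Without baseline butyrate replicate 1 the lesional difference was also -1.32 and was called, in a fit that left 1 mouse in that group. In butyrate-treated mice the HDM difference was -2.38 (standard error 0.97) with replicate 3 and 0.19 without it.

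S100a3 was abundant in a single mouse. It had 34 and 9 counts in baseline CTL, 16 and 21981 in baseline butyrate, 23 and 24 in lesional CTL, and 23 and 27 in lesional butyrate skin, or 1047 CPM in baseline butyrate replicate 3 and 0.500 to 1.89 CPM elsewhere. It was the 55th most counted gene there, with 31.3% of the counts of the 10 members (interval 30.9 to 31.6), and ranked 13332nd or lower in the other 7 mice. The 2 mice of that group lay 1161-fold apart, so the fitted butyrate difference in baseline skin of 8.77 had a standard error of 2.78 (FDR = 0.714), and it was -0.40 without replicate 3. With HDM in butyrate-treated mice it differed by -8.79, and by 0.38 without replicate 3. Between the other groups S100a3 differed by -0.03 with HDM in CTL mice (standard error 2.55) and 0.01 between lesional groups (standard error 2.504).

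The same mouse carried hair genes. Hair shaft genes (18 of 19 in the table) summed to 87.6, 73.0, 63.0, 5255, 123, 84.3, 118 and 91.3 CPM over the 8 libraries, and 10 inner root sheath genes to 185, 164, 151, 18963, 111, 106, 140 and 160 CPM. Of the 12 hair shaft and 7 sheath genes tested, 0 were called in any of the 4 contrasts of HDM or butyrate. Without that mouse 5 hair shaft genes and Krt27 of the sheath were called with HDM in CTL mice, Krt84 and Krt73 in butyrate-treated mice, and 0 in either contrast of butyrate. Krt35, a hair keratin, was at 533 CPM in baseline butyrate replicate 3 and at most 0.167 CPM elsewhere. Cell cycle genes summed to 963 CPM in that mouse and to 362 to 659 CPM in the others. Their part in the S100a3 level was not tested.

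**Figure D4:**
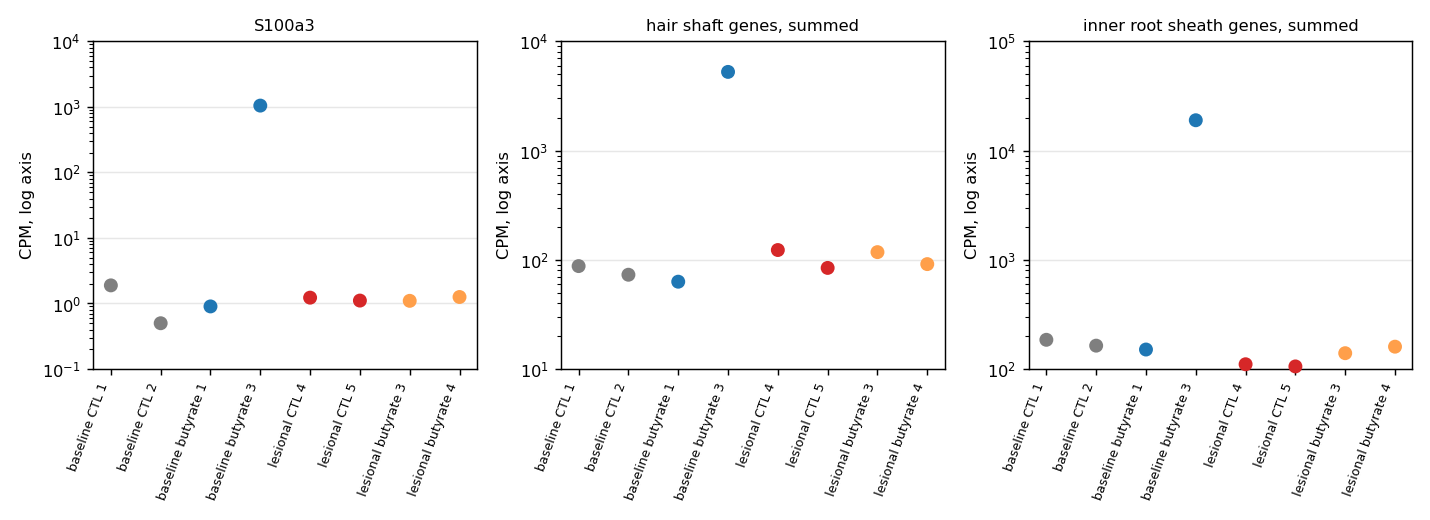
CPM per mouse on log axes for S100a3, for hair shaft genes summed and for inner root sheath genes summed, with groups by colour. In all 3 panels baseline butyrate replicate 3 (1047, 5255 and 18963 CPM) stands far above the other 7 mice.

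Genes whose profile was most like that of the members were found by the root mean square difference of centred log2 CPM over the 8 libraries among 14188 genes with at least 1 CPM, as a description. Nearest to the mean of S100a8 and S100a9 were Sprr2i (0.42), Defb3 (0.46), Sprr2b (0.54), Sprr2f (0.61) and Stfa2 (0.73). The Sprr2 genes encode small proline-rich proteins of the cornified envelope, and since they are near-identical copies their separate counts are uncertain. Defb3, a beta-defensin, had 0 counts in all 4 unexposed mice, 27.5 and 21.7 CPM in lesional CTL and 7.49 and 2.23 CPM in lesional butyrate skin. Stfa2 encodes a stefin, an inhibitor of cysteine proteases. Nearest to S100a3 were Tchh (0.45), Krt28 (0.50), Vsig8 (0.61), Tchhl1 (0.69) and Dsg4 (0.74), of which Tchh encodes trichohyalin, a protein of the inner root sheath, Krt28 a keratin of that sheath and Dsg4 a hair cadherin. S100a8 and S100a9 themselves differed by 0.587.

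The remaining S100 genes and the fused S100 proteins, large relatives that begin with an S100 domain, gave few calls. Of 8 other S100 genes 7 were listed and S100a1, S100a13 and S100b tested, with none called in these contrasts on all 8 libraries (S100b was called lower with HDM in CTL mice without baseline butyrate replicate 3). S100a1 was at 59.8 to 168 CPM and S100a13 at 27.1 to 36.1 CPM, and S100a2, S100a5, S100g and S100z had at most 0.286 CPM. Of the fused genes 6 of 7 were listed and 5 tested. Rptn, or repetin, rose with HDM in CTL mice by 3.74 (standard error 0.64, FDR = 0.0511), from 37.8 and 19.8 to 475 and 294 CPM, and stood at 273 and 159 CPM in lesional butyrate skin (difference -0.83, FDR = 1.00). Rptn was also called higher with HDM in butyrate-treated mice, and Flg2 lower in CTL mice, in the fit without baseline butyrate replicate 3. Tchh and Tchhl1 reached 6309 and 356 CPM in baseline butyrate replicate 3, as S100a3 did, and Crnn 571 CPM, against at most 11.1, 0.747 and 0.500 CPM in the other mice.

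S100a7a, 10.308 kb from S100a8, differed by 1.66 with HDM in CTL mice, S100a8 by 8.72 and S100a9 by 8.43, and from S100a14 to S100a6 the differences lay between -0.20 and 0.79. Over the 10 members the median was 0.36 in CTL mice, beside -0.02 over all genes, and 0.20 beside -0.04 in butyrate-treated mice. It was -0.02 beside -0.01 between lesional groups and 0.63 beside 0.00 between baseline groups. Leaving out baseline butyrate replicate 3, the members' median was -0.02 beside -0.01 between baseline groups and 0.34 beside -0.00 with HDM in butyrate-treated mice.

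**Figure D5:**
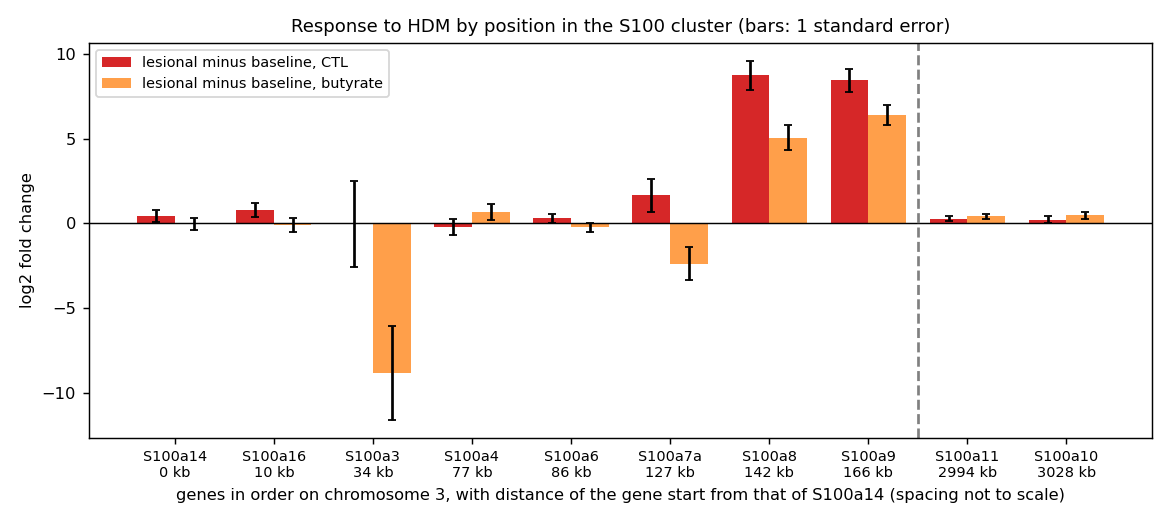
Fitted log2 fold change with HDM (bars, with 1 standard error) for the 10 genes in their order on chromosome 3, in CTL and in butyrate-treated mice; the dashed line marks the long gap before S100a11. S100a8 (8.72 and 5.06) and S100a9 (8.43 and 6.39) stand out beside S100a7a (1.66 and -2.38), and the bar of S100a3 in butyrate-treated mice (-8.79) rests on 1 mouse.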

How the data were processed

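Skin RNA of 8 mice, 2 in each of 4 groups taken from the sample labels, was measured by RNA sequencing. The authors mapped reads to GRCm38 with STAR (2.5.2, per the submitters' processing notes), assigned them to genes with featureCounts (reverse-stranded, per the file's name), and deposited raw counts of protein-coding genes without normalization.

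CPM and tests were computed from the counts. Groups were compared by edgeR's quasi-likelihood test (4.0.16, R 4.3.3, robust, TMM, filterByExpr with a minimum count of 10) on all 8 libraries with 4 residual degrees of freedom. FDR was adjusted by Benjamini-Hochberg over 15163 genes, and genes were called below 0.1 with a fold-change above 2, the study's thresholds. The labels do not say which mice shared a cage or a processing batch, and the tests take mice as independent. The p-values rest on a spread shared over the 4 groups, which includes baseline butyrate replicate 3. An exact permutation of 2 mice against 2 cannot give a p below 0.333. Alternatives were limma-voom (limma 3.58.1, the study's method), DESeq2 (1.42.0), other normalizations, filters, thresholds and subsets of libraries. The script was tested on simulated counts with a smaller spread than these data and no library that stood apart, which checks the code and not the power here. Profiles used log2 CPM with a prior count of 2.

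Named were the 10 members, genes of the lists in the text that were called or lead a sentence, and the 5 genes with the most similar profile. Members and lists were chosen with earlier results of these data known.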

Additional observations from a re-analysis of the deposited data

How the results depend on the processing

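Of 860 member results recomputed under the alternatives, 777 kept their direction and their side of the threshold, 25 lost a call, 28 gained one and 30 changed sign. Calls moved with the tool, among members and among all genes. In butyrate-treated mice HDM gave 3 called members in DESeq2, where 698 of 15163 genes were called. It gave 2 without a filter on low counts (61 of 18445 genes) and 0 in a fit of only the groups compared (0 of 14839), against 1. Butyrate in lesional skin gave 2 in DESeq2 (124 genes) against 0. Butyrate in baseline skin gave 1 (58 genes) against 0, and the interaction 1 (37 genes) against 0. Lesional butyrate against baseline CTL skin gave 1 in limma-voom (23 genes) and 1 at an FDR below 0.05 (21 genes), against 2. The cause was not tested.

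Of the 30 sign changes 24 came from leaving out 1 mouse. The others were of small values. S100a3 was at 0.242 in limma-voom for HDM in CTL mice and at 0.254 for lesional butyrate against baseline CTL skin. For HDM in butyrate-treated mice S100a14 was at 0.0744 in limma-voom, 0.000896 in DESeq2 and 0.000894 with RLE size factors, and S100a16 at 0.0834 in limma-voom.

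With 1 mouse left out at a time, called members ranged from 0 to 3 (HDM in CTL mice), 0 to 5 (HDM in butyrate-treated mice), 0 to 1 (butyrate in lesional skin), 0 to 6 (butyrate in baseline skin), 0 to 2 (lesional butyrate against baseline CTL skin) and 0 to 5 (interaction). Log2 fold changes that changed sign ranged as follows. With HDM in CTL mice S100a3 lay between -0.693 and 1.21. With HDM in butyrate-treated mice S100a3 lay between -9.78 and 0.383, S100a6 between -0.549 and 0.204, S100a7a between -3.24 and 0.194, S100a14 between -0.431 and 0.598, and S100a16 between -0.620 and 0.768. For butyrate in lesional skin S100a3 lay between -0.0858 and 0.107, S100a10 between -0.0944 and 0.132, S100a14 between -0.150 and 0.379, and S100a16 between -0.249 and 0.106. For butyrate in baseline skin S100a9 lay between -0.00276 and 0.260, S100a3 between -0.403 and 10.01, S100a4 between -1.41 and 0.189, S100a14 between -0.0380 and 0.991, and S100a16 between -0.0418 and 1.35. For lesional butyrate against baseline CTL skin S100a3 lay between -0.678 and 1.23, and for the interaction between -10.00 and 0.418, with S100a14 between -0.851 and 0.177.

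No paired analysis was made because no label pairs mice across groups. Gene lists were recomputed without baseline butyrate replicate 3, an alternative chosen after seeing the data. Other library scalings moved the 80 levels by factors of 0.945 to 1.04. Where 1 mouse was left out, the lone mouse of that group is assumed to vary like the others.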
